A study of Mus musculus with 6 samples.

Results

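Striosomes and matrix are the 2 neurochemical compartments of the striatum, and the 10 genes described here mark them. Oprm1, Kremen1, Sema5b, Lypd1, Tshz1, Kcnip1, Pbx3 and Bach2 were taken as the 8 striosome genes, and Epha4 and Calb1 as the 2 matrix genes. They were found by gene symbol in a table of 23067 genes, and each had 1 row. RNA had been sequenced from dorsal striatum of mice at postnatal day 21. The wild-type group (Lrrk2 WT/WT) and the knock-in group (homozygous for Lrrk2 G2019S, a change in a kinase linked to Parkinson's disease) held 3 libraries each. The labels give no treatment, and no source used here gives the strain, the line or whether animals were pooled. The question was whether the genotype altered the level of either set of compartment genes.

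Striosomes are islands of projection neurons embedded in a larger matrix. They receive more limbic input than the matrix and send axons to dopamine neurons of the midbrain, while matrix neurons carry mainly sensorimotor signals. Striosome neurons are classically recognised by the mu opioid receptor, and matrix neurons by the calcium buffer calbindin. Both compartments contain direct-pathway and indirect-pathway neurons, so the division cuts across that of dopamine receptors. The genes are enriched in a compartment and are not exclusive to it: several are also expressed by interneurons, cortex or glia. RNA of whole striatum mixes all of these, so fewer cells of a type and less RNA per cell cannot be told apart.

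Several facts of the libraries bear on the values. Summed FPKM (sequenced fragments scaled for transcript length and for library size) lay between 314146 and 335508, and read depth is unknown. Titles give male animals, yet Xist, which is transcribed from the inactive X chromosome of females, stood at 27.2 to 39.3 FPKM in all 6 libraries. The Y-linked genes Ddx3y, Uty, Kdm5d and Eif2s3y were not found by symbol among the 23067 genes. Whether the label of sex holds was not tested. Striatal identity was plain: the projection neuron gene Ppp1r1b stood at 750 to 835 FPKM. The cortical marker Slc17a7, which loads glutamate into synaptic vesicles, differed between libraries. Knock-in replicates 1 and 2 had 29.9 and 25.2 FPKM, wild type replicate 1 had 11.0 FPKM, and the remaining 3 libraries had 2.73 to 3.55 FPKM. Lrrk2 was at 10.9, 12.0 and 11.0 FPKM in wild type against 12.1, 11.3 and 12.4 FPKM in knock-in, and a point change does not test the labels. The labels do not say that libraries of a genotype came from different animals. All p-values below therefore refer to the spread among these 6 libraries, part of which may be technical.

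The 2 matrix genes were the most abundant of the 10. Calb1, which encodes calbindin, averaged 33.2 FPKM over the 6 libraries, higher than 94.1% of genes in the table. Epha4, a receptor tyrosine kinase for ephrins, averaged 21.6 FPKM. Next came Pbx3, a homeodomain transcription factor, at 9.08 FPKM. Each of these was above the next gene in 6 of 6 libraries with no overlap of values.

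Lypd1, Tshz1 and Kremen1 followed with means of 7.06, 6.69 and 6.55 FPKM, and their order was not separated by the spread. Tshz1 exceeded Kremen1 in 3 of 6 libraries, and Lypd1 exceeded Tshz1 in 5. Sema5b at 3.51 FPKM and Kcnip1 at 1.62 FPKM came next, each clear of its neighbours in every library. Bach2 averaged 0.810 FPKM and Oprm1 0.214 FPKM, although Oprm1 is the classical striosome marker, and the mean of Oprm1 exceeded that of only 18.5% of genes in the table. Bach2 was above Oprm1 in 6 of 6 libraries, yet the ranges overlapped. FPKM is scaled for length, so these are levels per transcript length, and they depend on the transcript models used.

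**Figure D1:**
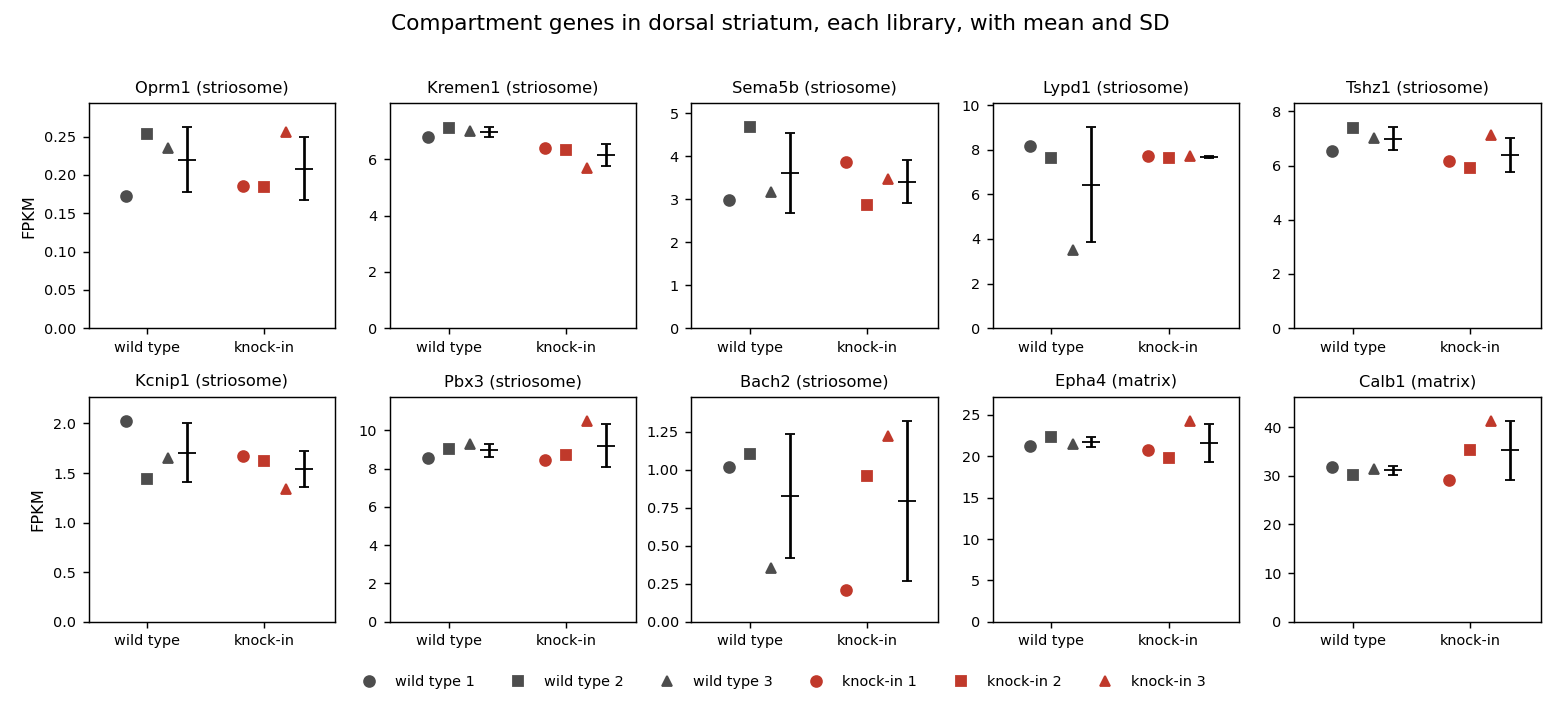
FPKM (linear axis from 0) of each compartment gene in the 3 wild-type (grey) and 3 knock-in (red) libraries, with the group mean and SD (n = 3) in black. Only Kremen1 has knock-in values that lie wholly below wild type, at up to 6.41 against at least 6.77 FPKM, and Lypd1 has 1 low library, wild type replicate 3, at 3.49 FPKM.

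None of the compartment genes passed the test between genotypes. Differences were tested with limma on log2(FPKM + 1), and a gene was called at a Benjamini-Hochberg adjusted p under 0.05. Of the 10 genes, 8 reached the mean of 1 FPKM required for testing, and 0 of 8 were called, where 3 of 14156 genes (0.0212%) were called in all. Of the 8 genes, 3 had a higher mean log2 level in knock-in and 5 a lower one, with a median difference of -0.032 against -0.014 over all tested genes. One of the 8, Kremen1, had an unadjusted p under 0.05, as did 4.27% of tested genes. Oprm1 and Bach2 fell below the 1 FPKM minimum and were read from the fit without it, in which 0 of 10 compartment genes and 0.0173% of all 23067 genes were called. The adjusted p of every tested compartment gene in limma was 0.997.

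**Figure D2:**
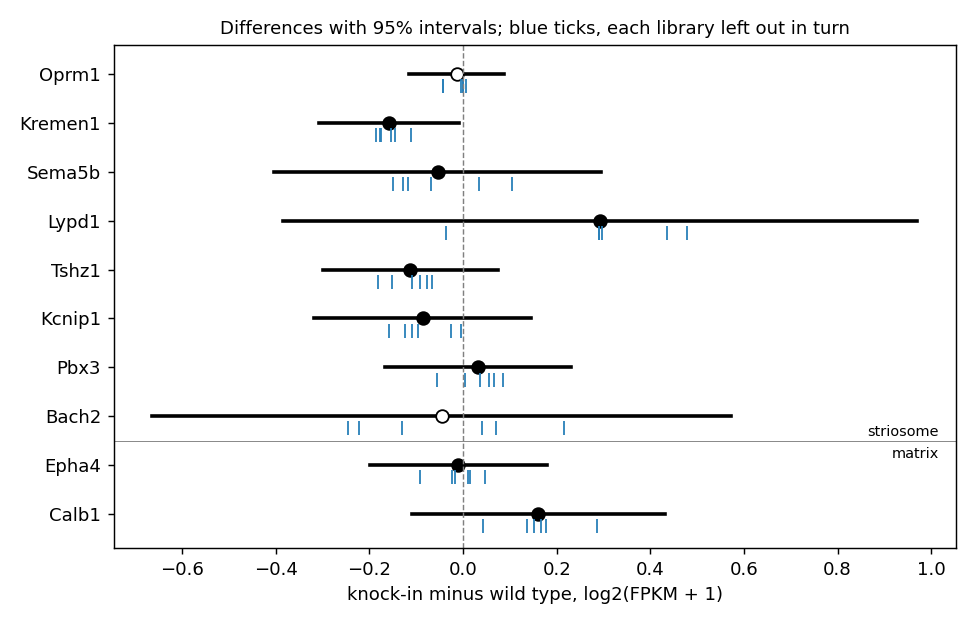
Knock-in minus wild-type difference of log2(FPKM + 1) for each gene (points) with its 95% interval (lines), open points being the 2 genes read from the fit without a minimum level. Blue ticks give the difference with each library left out in turn. The interval of Kremen1 ends at -0.0092, and those of the other 9 genes span 0.

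Among the striosome genes, Kremen1 was the only one whose genotypes did not overlap. It encodes a receptor for Dickkopf proteins, which restrain Wnt signalling. The wild-type libraries were at 6.77, 7.11 and 7.00 FPKM and the knock-in libraries at 6.41, 6.33 and 5.68 FPKM. All 3 knock-in libraries therefore lay below all 3 wild-type libraries, a pattern found in 6.58% of tested genes in that direction and in 9.51% in either direction. The group means were 6.96 ± 0.170 and 6.14 ± 0.397 FPKM (SD, n = 3 each), a ratio of 0.882. The log2 difference was -0.16 (SE 0.06, 95% interval -0.31 to -0.0092, unadjusted p = 0.0402, adjusted p = 0.997 in limma), so it did not pass over all genes. It lay between -0.19 and -0.11 with any library left out.

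Of 7 listed Dickkopf and Wnt co-receptor genes around Kremen1, 5 were found by symbol and 4 reached the level required for testing. Of these 4, 0 were called, 2 were higher and 2 lower. Dkk1 and Dkk4 were not analysed here. Dkk3, a secreted Dickkopf family protein, was the most abundant. It stood at 18.7, 18.4 and 18.8 FPKM in wild type against 24.5, 20.9 and 18.4 FPKM in knock-in. The 2 higher values came from the libraries with the most Slc17a7. Lrp6, the Wnt co-receptor that Kremen proteins help remove from the membrane, was at 4.28 ± 0.269 and 4.11 ± 0.331 FPKM (SD, n = 3 each).

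Sema5b, a transmembrane semaphorin that guides axons, varied more within wild type than between genotypes. Its values were 2.99, 4.67 and 3.17 FPKM in wild type against 3.86, 2.87 and 3.48 FPKM in knock-in. The groups overlapped, with wild type replicate 2 the highest of the 6, a library whose ependymal and choroid plexus markers summed to 388 FPKM against at most 29.9 FPKM elsewhere. The part of those markers' cells in the Sema5b level was not tested. The log2 difference was -0.05 (95% interval -0.40 to 0.30), and its sign turned when either replicate 2 was left out, to 0.10 for wild type and 0.035 for knock-in. Of its paralogue Sema5a and the 4 class A plexins, 0 of 5 were called, with 4 lower in knock-in and a median log2 difference of -0.11. Sema5a, named after its values were seen, was at 2.83, 2.76 and 2.98 FPKM in wild type against 2.49, 2.49 and 2.31 FPKM in knock-in. Its groups did not overlap, and its log2 difference of -0.17 (unadjusted p = 0.0292, adjusted p = 0.997 in limma) did not pass. Plxna3, also named after its values were seen, was likewise lower in all knock-in libraries, at 1.80 to 1.95 against 2.05 to 2.32 FPKM. It did not pass (unadjusted p = 0.0647, adjusted p = 0.997 in limma). Of all tested genes, 6.58% were lower in knock-in without overlap. The most abundant of these plexins, Plxna2, overlapped between genotypes, at 7.04 ± 0.557 and 6.45 ± 0.475 FPKM (SD, n = 3 each).

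Lypd1 was nearly constant in 5 libraries and low in 1. The gene encodes a membrane-anchored protein of the Ly6 family that modulates nicotinic acetylcholine receptors. Knock-in libraries were at 7.71, 7.64 and 7.71 FPKM, and wild type replicates 1 and 2 at 8.18 and 7.65 FPKM, while wild type replicate 3 was at 3.49 FPKM. The lowest library was thus at 0.457 of the next lowest, and of the 611 genes with means from 7 to 8 FPKM, 0.491% had a lowest library under 0.5 of the next. The log2 difference was 0.29 (SE 0.28, fold of FPKM + 1 between 0.766 and 1.96), and without wild type replicate 3 it was -0.036. Its exons share 1202 bases with Gpr39 on the opposite strand, and no source used here gives the strand setting of the counting. Gpr39 was also lowest in wild type replicate 3, at 0.554 FPKM against 0.822 to 1.20 FPKM elsewhere. Whether the shared bases bear on the Lypd1 value was not tested.

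The related Ly6 proteins and the main brain nicotinic subunits gave 0 called of 7, with 6 higher and 1 lower. Lynx1, which binds nicotinic receptors, was at 112 ± 0.803 and 114 ± 4.76 FPKM (SD, n = 3 each). Ly6h, another Ly6 protein, was at 15.5 to 18.2 FPKM in wild type against 12.3 to 17.4 FPKM in knock-in, with overlap. Lypd6, named after its values were seen, was the 1 gene of these whose groups did not overlap, as in 9.51% of tested genes. It was at 3.17 to 3.38 FPKM in wild type against 3.42 to 3.76 FPKM in knock-in. Chrnb2, a subunit of the high-affinity nicotinic receptor, was at 7.22 ± 0.367 and 7.28 ± 0.340 FPKM.

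Tshz1, a zinc finger transcription factor that marks a subset of striosomal neurons, was at 6.55, 7.39 and 7.02 FPKM in wild type against 6.16, 5.92 and 7.11 FPKM in knock-in. Knock-in replicate 3 lay inside the wild-type range and the other 2 below it. The log2 difference was -0.11 (SE 0.08, 95% interval -0.30 to 0.074). With the level of cortical markers as a covariate it was -0.011. Pbx3, which acts with Meis proteins on DNA, was at 8.57, 9.01 and 9.28 FPKM in wild type against 8.45, 8.69 and 10.5 FPKM in knock-in. Knock-in replicate 3 was the highest and knock-in replicate 1 the lowest, so the groups overlapped. The difference of 0.031 had a 95% interval of -0.17 to 0.23 and was -0.056 without knock-in replicate 3.

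Bach2, a transcriptional repressor of the CNC family, ranged 5.88-fold over the libraries. It stood at 1.02, 1.10 and 0.357 FPKM in wild type against 0.207, 0.956 and 1.22 FPKM in knock-in. Each genotype held 1 low library, wild type replicate 3 and knock-in replicate 1, so the groups overlapped. A range at least as wide occurred in 2.80% of the 3572 genes with means from 0.5 to 1.5 FPKM. The log2 difference of -0.046 had a 95% interval of -0.66 to 0.57. It was 0.22 without knock-in replicate 1, 0.040 without wild type replicate 1 and 0.070 without wild type replicate 2. Bach2 shares 537 exon bases with the antisense gene Bach2os, which was at 0.0041 to 0.0752 FPKM.

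Relatives and partners of the 3 transcription factors (other Tshz, Pbx, Meis, Bach and small Maf genes) gave 0 called of 11 tested, 5 higher and 6 lower, with a median log2 difference of -0.014. Meis2, the most abundant, was at 22.9 ± 1.52 FPKM in wild type against 22.9 ± 1.86 FPKM in knock-in (SD, n = 3 each). Pbx2 was at 16.7 ± 0.502 and 16.8 ± 0.531 FPKM. Mafk and Tshz3, named after their values were seen, were the 2 of 11 genes whose groups did not overlap, as in 9.51% of all tested genes, Mafk at 1.96 to 2.00 in knock-in against 2.07 to 2.44 FPKM and Tshz3 at 1.25 to 1.74 against 1.10 to 1.21 FPKM.

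Kcnip1, an auxiliary subunit that sets the gating of Kv4 potassium channels, was at 2.02, 1.44 and 1.66 FPKM in wild type against 1.68, 1.62 and 1.33 FPKM in knock-in. The groups overlapped, and the log2 difference was -0.087 (SE 0.099). Without wild type replicate 1, the highest library, it was -0.0035. Kcnip1 is also made by striatal interneurons, whose markers summed to 371 to 450 FPKM in wild type against 372 to 456 FPKM in knock-in. Its relative Kcnip2, at 122 ± 8.07 and 120 ± 2.68 FPKM (SD, n = 3 each), was far more abundant in this tissue. Of 7 tested genes of the KChIP, Kv4 and accessory subunit group, 0 were called, 3 higher and 4 lower, with a median of -0.0030. The channel subunit Kcnd2 was at 26.1 ± 1.25 and 27.0 ± 3.53 FPKM.

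Oprm1, the receptor for morphine, enkephalins and endorphins, was measured at 0.173, 0.253 and 0.235 FPKM in wild type against 0.185, 0.184 and 0.256 FPKM in knock-in. These values overlapped almost entirely, with means of 0.220 ± 0.0420 and 0.208 ± 0.0415 FPKM (SD, n = 3 each). The log2(FPKM + 1) difference was -0.014 (95% interval -0.12 to 0.088), a scale on which changes of such a low gene are understated. Leaving out either replicate 2 turned the sign, to 0.0056 for wild type and 0.00076 for knock-in. GENCODE lists 31 transcripts and 8037 exon bases for the gene, and its exons share 96 bases with Ipcef1 on the opposite strand. The delta receptor gene Oprd1 was at 5.98 ± 0.996 and 5.83 ± 0.771 FPKM, far above Oprm1 per transcript length. Of 6 tested opioid receptor and peptide genes other than Oprm1, 0 were called, 3 higher and 3 lower. Penk, the enkephalin precursor, was at 1057 ± 49.7 and 1118 ± 67.2 FPKM, and Pdyn, the dynorphin precursor, at 38.6 ± 1.44 and 36.8 ± 2.58 FPKM.

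The matrix genes did not pass either. Their SD was larger in knock-in, as was that of the striosome genes Kremen1, Tshz1, Pbx3 and Bach2. The SD of Oprm1, Sema5b, Lypd1 and Kcnip1 was not. Epha4 was at 21.2, 22.3 and 21.5 FPKM in wild type against 20.7, 19.8 and 24.2 FPKM in knock-in. Its knock-in values lay on both sides of the wild-type range, with a log2 difference of -0.0099 (fold of FPKM + 1 between 0.871 and 1.13). The sign was not stable: the difference was 0.011, 0.016 and 0.047 without wild type replicate 2, knock-in replicate 1 or knock-in replicate 2, and it was also positive, at 0.016, under median-of-ratios scaling. Calb1 was at 31.8, 30.1 and 31.4 FPKM in wild type against 29.2, 35.3 and 41.2 FPKM in knock-in. Of its knock-in libraries, 2 were above wild type and 1 was below. The group means were 31.1 ± 0.902 and 35.2 ± 6.02 FPKM (SD, n = 3 each), and the log2 difference was 0.16 (SE 0.12, fold of FPKM + 1 between 0.927 and 1.35). Without knock-in replicate 3 it was 0.043, and without knock-in replicate 1 it was 0.29.

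Eph receptors and ephrins, the family of Epha4, gave 0 called of 16 tested, 6 higher and 10 lower, with a median log2 difference of -0.065. The ligand gene Efnb3 was the most abundant, at 77.0 ± 5.14 and 71.3 ± 3.06 FPKM (SD, n = 3 each). Epha8, named after its values were seen, was the 1 member whose genotypes did not overlap, as in 9.51% of tested genes. It was at 7.40, 7.39 and 7.88 FPKM in wild type against 6.48, 6.36 and 6.72 FPKM in knock-in, with a log2 difference of -0.19 (unadjusted p = 0.0132, adjusted p = 0.997 in limma). Calcium-binding relatives of Calb1 gave 0 called of 8 tested, 6 higher and 2 lower. Hpca, which encodes the calcium sensor hippocalcin, was at 487 ± 16.0 and 501 ± 18.2 FPKM. Hpcal4, a member of the same visinin-like family, was at 85.9 to 90.0 FPKM in wild type against 92.3 to 96.1 FPKM in knock-in. It was the 1 gene of these 8 whose groups did not overlap, as in 9.51% of tested genes. Hpcal4 was not called (unadjusted p = 0.103, adjusted p = 0.997 in limma).

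The balance of the compartments was next described by summing each set. The 8 striosome genes summed to 36.3, 38.6 and 32.2 FPKM in wild type against 34.7, 34.2 and 37.3 FPKM in knock-in. The lowest sum, of wild type replicate 3, holds the low Lypd1 value of 3.49 FPKM, against 7.64 to 8.18 FPKM elsewhere. Oprm1 adds at most 0.256 FPKM to any of these sums. The 2 matrix genes summed to 53.1, 52.4 and 52.8 FPKM in wild type against 49.9, 55.1 and 65.4 FPKM in knock-in. Their ratio was 0.676 ± 0.0638 in wild type and 0.628 ± 0.0628 in knock-in (SD, n = 3 each), with the groups overlapping. The log2(FPKM + 1) scale lets the most abundant genes dominate less, but it understates changes of low genes such as Oprm1. On it, the mean striosome level minus the mean matrix level was -2.64 ± 0.127 and -2.74 ± 0.119. The difference between genotypes was -0.094, smaller than the SD within either group. With a library left out it ranged from -0.028 without knock-in replicate 3 to -0.16 without wild type replicate 3, and it was -0.040 if wild type replicate 2 was omitted and -0.14 if knock-in replicate 1 was. No p is given for these sums.

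**Figure D3:**
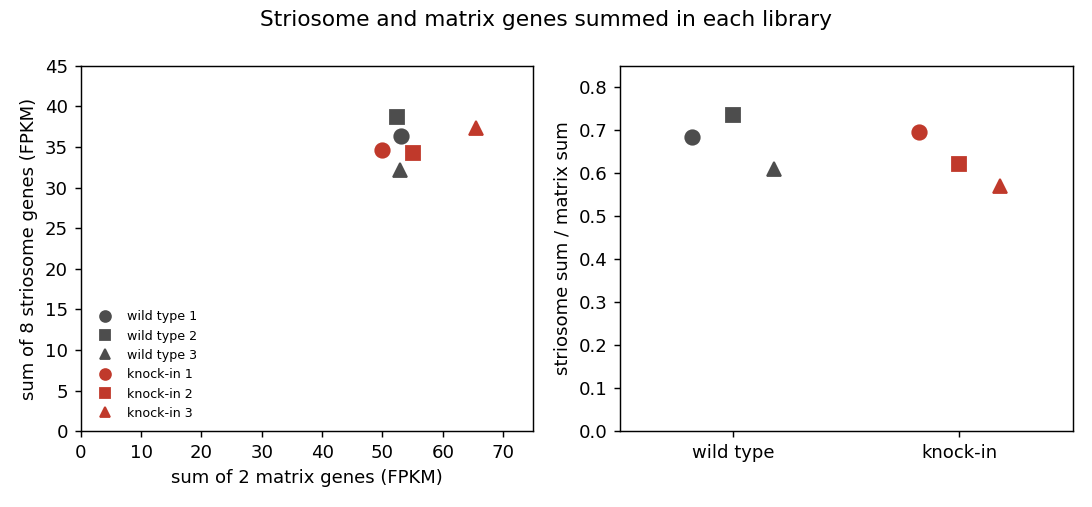
Left, summed FPKM of the 8 striosome genes against that of the 2 matrix genes in each library (axes from 0). Right, the ratio of the sums by genotype. Knock-in replicate 3 stands to the right with a matrix sum of 65.4 FPKM and has the lowest ratio, 0.570, while the other 5 ratios lie between 0.609 and 0.736.

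Knock-in replicate 3 was the library that stood out most often. It was the highest of the 6 for 5 of the 10 compartment genes (Oprm1, Pbx3, Bach2, Epha4 and Calb1) and the lowest for Kremen1 and Kcnip1. In the same library, the 11 projection neuron markers had their highest sum, 3070 FPKM against 2770 to 2918 FPKM elsewhere. The 4 oligodendrocyte markers had their lowest, 1927 FPKM, against 2224 and 2339 FPKM in the other knock-in libraries and 2373 to 2675 FPKM in wild type. Astrocyte, endothelial, oligodendrocyte precursor and ependymal or choroid plexus markers were also lowest there. The 4 ependymal and choroid plexus markers set wild type replicate 2 apart, with a sum of 388 FPKM, while the other 5 sums lay between 10.8 and 29.9 FPKM. The sums of the 4 oligodendrocyte, 3 precursor and 5 neuroblast markers did not overlap between genotypes, each being lower in knock-in. Their part in the levels of the compartment genes was not tested.

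**Figure D4:**
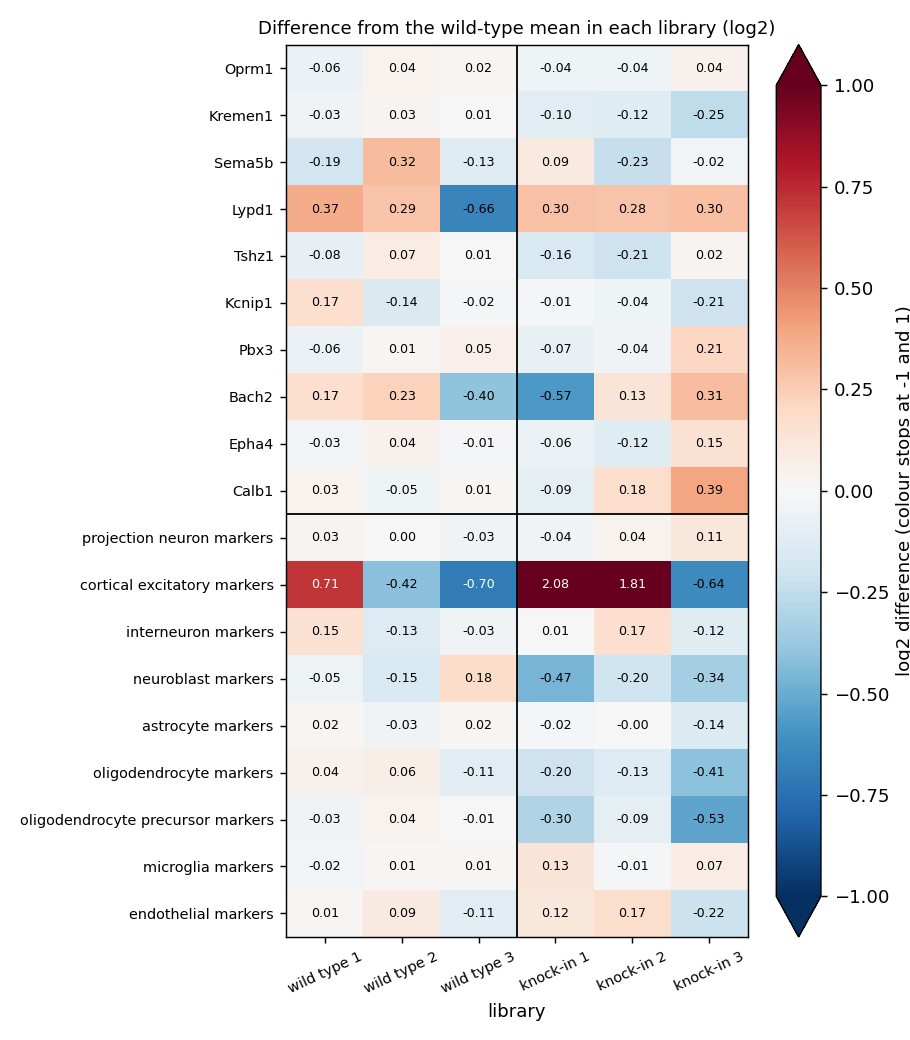
Difference from the wild-type mean in each library, on log2(FPKM + 1) for the 10 compartment genes (above the line) and on log2 of summed FPKM for marker lists (below), blue lower and red higher. Cortical excitatory markers are at 2.08 and 1.81 in knock-in replicates 1 and 2, and Calb1 reaches 0.39 in knock-in replicate 3.

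Several compartment genes were lower in the libraries with more Slc17a7, though they did not fall in step with its level. In the 3 libraries above 10 FPKM of Slc17a7, Epha4 was at 19.8 to 21.2 FPKM, against 21.5 to 24.2 FPKM in the other 3. Tshz1 was at 5.92 to 6.55 against 7.02 to 7.39 FPKM, Pbx3 at 8.45 to 8.69 against 9.01 to 10.5 FPKM, and Oprm1 at 0.173 to 0.185 against 0.235 to 0.256 FPKM. These 4 of 10 genes were lower in all 3 libraries with more Slc17a7, and 0 were higher in all 3. Of the 8 tested compartment genes, which leave out Oprm1 and Bach2, 3 were lower and 0 higher. Over the tested genes 7.61% were lower and 9.98% higher in this way. The same held for 5 of 11 projection neuron markers (Rgs9, Drd1, Pde10a, Foxp1 and Bcl11b), and 0 were higher in all 3. The sum of all 11 overlapped. It was 2770 to 2918 FPKM in the 3 libraries with more Slc17a7 against 2776 to 3070 FPKM in the others. This division was drawn after the values were seen and follows no label, so no test is given. All 6 cortical markers were detected, 3 of them with means under 1 FPKM, and they summed to 5.94 to 15.8 FPKM in wild type against 6.20 to 40.9 FPKM in knock-in. With their level as a covariate, an alternative with 1 fewer degree of freedom, the log2 differences were 0.32 for Calb1 (adjusted p = 0.400 in limma), 0.095 for Epha4 and -0.21 for Kremen1 (adjusted p = 0.404), and 0 compartment genes were called. The covariate also moved Kcnip1 from -0.087 to -0.21, Pbx3 from 0.031 to 0.16 and Lypd1 from 0.29 to 0.17. Tshz1 moved from -0.11 to -0.011 and Sema5b from -0.055 to -0.019. The cortical marker sums of knock-in replicates 1 and 2, 40.9 and 33.8 FPKM, lay above every wild-type library. Genotype and covariate therefore cannot be fully told apart in this fit.

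Other genes known to differ between the compartments were not called either. Of 5 further striosome-enriched genes (Pdyn, Tac1, Rasgrp1, Nr4a1 and Foxp2), 0 were called, 3 higher and 2 lower, with a median log2 difference of 0.066 where that of the 6 tested striosome genes above was -0.071. Rasgrp1, an activator of Ras, was at 92.9 ± 2.20 and 97.7 ± 10.3 FPKM, and Tac1, the substance P precursor, at 45.3 ± 4.32 and 51.8 ± 10.4 FPKM (SD, n = 3 each). Both were highest in knock-in replicate 3, at 109.5 and 63.5 FPKM. Nr4a1, an activity-regulated nuclear receptor, was at 40.9, 29.0 and 51.9 FPKM in wild type against 33.4, 42.5 and 29.7 FPKM in knock-in, with complete overlap. Of 3 further matrix-enriched genes, 0 were called, 2 higher and 1 lower, with a median of 0.10 against 0.075 for Calb1 and Epha4. Rasgrp2, an activator of Rap, was at 21.1 ± 0.603 and 22.7 ± 1.26 FPKM, Id4 at 44.8 ± 1.23 and 44.5 ± 3.38 FPKM, and the vesicle protein gene Sv2b at 11.4 ± 1.52 and 12.6 ± 0.944 FPKM.

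Without predicted gene models, 1 of which lay nearer than the last of these, the genes whose pattern over the 6 libraries was closest to Calb1 were Tmem11, Slc25a42 and Btg3, by the root-mean-square difference of deviations in log2(FPKM + 1), at 0.0422, 0.0503 and 0.0506. Tmem11, for example, was at 6.80 to 7.02 FPKM in wild type against 6.81, 7.63 and 9.31 FPKM in knock-in. For Oprm1 the closest were Grm4, Adcy5 and Arl5a, at 0.0127, 0.0132 and 0.0147. Oprm1 itself deviated by 0.0411 on that scale and 1197 tested genes lay within 0.05 of it, so closeness to it distinguishes little.

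In the genome, no compartment gene shares a chromosome with Lrrk2, which lies on chromosome 15 at 91673175 to 91816120 (GRCm38). Calb1 lies on chromosome 4 at 15881264 to 15908064 and Bach2 on the same chromosome at 32238804 to 32586108. Epha4 lies on chromosome 1 at 77367185 to 77515088, with Lypd1 at 125867622 to 125913101. Kremen1 lies on chromosome 11 at 5191552 to 5261558, with Kcnip1 at 33629339 to 33993152. Oprm1 lies on chromosome 10 at 6758506 to 7038198, Sema5b on chromosome 16 at 35541145 to 35664732, Pbx3 on chromosome 2 at 34171457 to 34373142 and Tshz1 on chromosome 18 at 84011627 to 84087706. Kremen1, Sema5b, Tshz1, Kcnip1, Pbx3, Epha4 and Calb1 share no exon bases with another annotated gene.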

How the data were processed

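RNA of 6 dorsal striatum libraries was prepared with a TruSeq kit, per the labels' protocols. The authors deposited FPKM values for each gene in each library, as the column names show. The submitters' processing notes name HISAT2, StringTie, SAMtools and FastQC, without versions. A label names a stranded run, but the build, annotation and strand setting behind the table were not given in the sources used here. Low FPKM of single-transcript genes were within 0.1 of whole-read steps for 36.4% to 41.2% of values, at the best of the depths tried. With gene lengths shuffled, 22.14% to 23.45% were. As most values lay off such steps, reads were not recovered and depth is unknown. The table held 0 values at 0.

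Values were transformed as log2(FPKM + 1), and limma 3.58.1 (R 4.3.3) was fitted to the 14156 genes whose mean reached 1 FPKM (trended, robust, two-sided, Benjamini-Hochberg over all tested genes). The code was tested on simulated data. Positions are from GENCODE M21 on GRCm38, matched by gene identifier, and may differ from the authors' annotation.

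The members and lists were chosen with earlier results of these data known. All 10 members are named, with up to 3 genes of highest mean FPKM per related list, any called gene, and the 3 nearest patterns of Oprm1 and Calb1. Markers are given as sums, except Slc17a7 and Ppp1r1b. Lrrk2, Xist, the Y-linked genes, Gpr39, Bach2os, Ipcef1, the 5 projection neuron markers named beside Slc17a7 and genes said to be named after their values fall outside this rule. Alternatives were each library left out, a replicate block, pseudocount 0.1, no minimum or 5 FPKM, quantile or median-of-ratios scaling, limma without trend, and a cortical covariate. Scaling to projection neuron markers and omitting libraries over 10 FPKM of Slc17a7 were added after the data were seen.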

Additional observations from a re-analysis of the deposited data

How the results depend on the processing

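The count of compartment genes called was 0 under all 16 alternatives. Over the 15 or fewer with a value per gene (not computed for the libraries up to 10 FPKM of Slc17a7), the lowest adjusted p was 0.400 (Calb1, cortical covariate, limma). Genes called in all numbered 3 to 15 with a library left out (wild type replicate 2 omitted, 8; knock-in replicate 1, 2 or 3 omitted, 11, 15 or 6) and 8 in the libraries up to 10 FPKM of Slc17a7, which leave 1 knock-in library assumed to vary like wild type. The replicate block gave 2 calls against 3, and 0 compartment genes. Same-numbered libraries deviated from their group means with correlations of -0.0113, -0.0739 and 0.186, and wild type replicate 1 correlated better with knock-in replicate 2 (0.210). Deviations taken within groups of 3 libraries cannot decide whether same-numbered samples were paired. The median difference of striosome genes was -0.11 to -0.015 with a library left out and -0.015 with the cortical covariate. That of matrix genes was 0.21 with the covariate, 0.28 in the libraries up to 10 FPKM of Slc17a7 and -0.024 without knock-in replicate 3. Signs turned, with a library left out, for Sema5b (-0.15 to 0.10), Epha4 (-0.092 to 0.047), Lypd1 (-0.036 to 0.48), Pbx3 (-0.056 to 0.084), Oprm1 (-0.042 to 0.0056) and Bach2 (-0.25 to 0.22). Epha4 also turned with median-of-ratios scaling (0.016) and the covariate (0.095), and Pbx3 relative to projection neuron markers (-0.0060). The causes were not tested. Kremen1, Tshz1, Kcnip1 and Calb1 kept their sign in every alternative run for them. With 3 libraries a group the intervals were wide, from 0.766 to 1.96-fold of FPKM + 1 for Lypd1, and read depth is unknown.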
